A study of Mus musculus with 10 samples.

Results

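The genes described here are *Aif1*, *Msr1*, *Cd68*, *Cd72*, *Trem2*, *Tyrobp*, *Lgals3*, *Spp1*, *Apoe* and *Clec7a*, 10 genes known from activated microglia and macrophages. They were chosen by symbol from the 15900 genes of a table of cap analysis of gene expression (CAGE), in which each tag marks the capped start of a transcript. Each symbol had 1 row, and all 10 genes were among the 15851 genes tested. Levels are in CPM, the tags of a gene scaled to the total of its library. Because a transcript gives 1 capped start whatever its length, the CPM of different genes can be compared without correction for length.

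The samples were whole hippocampi of 10 male ICR (CD-1) mice, an outbred stock, aged 9 to 10 weeks, 2 to a group. The pre-SE mice are labelled untreated and had no pilocarpine (PILO), a muscarinic agonist that induces status epilepticus (SE), a prolonged seizure. The study's methods state that control mice had saline in place of PILO, and its results call pre-SE mice naive. The mice of the other 4 groups were given PILO after methyl scopolamine, and diazepam ended their SE. The hippocampi were taken 6 h or 2 days later. Mice of the SE 6 h and SE 2 days groups were not given levetiracetam (LEV), an antiseizure drug. The others had LEV by mouth (SE + LEV 6 h, after 1 dose, and SE + LEV 2 days, after 5 doses). The question was how gene expression in the hippocampus changes early after SE and what LEV does to that change. The recovered depth was 10540698 to 51710968 tags per mouse, and the limit of detection was set at 3 tags, which equal 0.058 to 0.285 CPM.

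Microglia are the resident macrophages of the brain. At rest they express genes such as *P2ry12* and *Tmem119*, and after injury they express receptors that sense lipids and debris, lysosomal proteins and secreted factors. TREM2 is a lipid-sensing receptor that has no signalling tail of its own and signals through the adaptor TYROBP. Together with APOE, a lipid carrier that TREM2 can bind, this pair is known for the switch of microglia from the resting to the disease-associated state. Monocytes that enter the brain after seizures express many of the same genes, so a bulk sample does not separate the cells of origin.

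At 2 days after SE, 9 of the 10 genes were higher than in pre-SE mice. The exception was *Apoe*, by far the most abundant of them. In the limma fit across all genes, called at an adjusted p of at most 0.05, the count of 9 stood beside 5.07% of all genes tested that were called higher. The median logFC of the 10 genes was 3.23 and that of all genes was −0.03, where logFC is a difference of log2(CPM + 0.1), a scale that understates changes of genes with low CPM. In the same 9 genes the SE 2 days mice and the pre-SE mice did not overlap, and 26.3% of all genes were likewise higher in both mice. In bulk tissue, more cells of a type and more RNA per cell cannot be told apart. The labels list the mice of a group as separate samples, and p-values measure the spread between these samples. With 2 mice against 2 an exact permutation p cannot go below 0.333, so each call uses the spread that limma pools over genes and groups.

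Of the receptors and their adaptor, *Tyrobp* (ENSMUSG00000030579, mm9 chromosome 7 from 31198807 to 31202596) was the most abundant. Pre-SE mice had 18.8 and 22.88 CPM of it, SE 6 h mice 29.09 and 35.36 CPM, and SE 2 days mice 88.4 and 123.27 CPM. It was 23.96 and 29.6 in the SE + LEV 6 h mice and 110.92 and 112.42 in the SE + LEV 2 days mice. The 2-day mice of both treatments were above all 6 others. Against pre-SE mice the logFC at 2 days was 2.33 (standard error 0.25, limma adjusted p = 0.0013). *Hcst*, which encodes a related adaptor and ends 135 bases beyond *Tyrobp* on the opposite strand, was at 0.33 CPM or below in all 10 mice.

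*Trem2* (ENSMUSG00000023992, chromosome 17 from 48485726 to 48493472) was at 8.83 and 7.56 CPM in the pre-SE mice. It was at 7.76 and 3.01 CPM in the SE 6 h mice and at 7.51 and 4.08 CPM in the SE + LEV 6 h mice. It then stood at 32.69 and 49.34 CPM in the SE 2 days mice and at 54.66 and 31.91 CPM in the SE + LEV 2 days mice. The receptor thus had no higher mean at 6 h, while its level at 2 days was above that of all pre-SE and 6 h mice. The logFC at 2 days was 2.28 (standard error 0.48, limma adjusted p = 0.022). This call was lost without SE 2 days replicate 2 (logFC 1.99, limma adjusted p = 0.22) and without either pre-SE mouse.

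*Msr1* (ENSMUSG00000025044, chromosome 8 from 40667054 to 40728032) encodes a scavenger receptor of macrophages that takes up modified lipoproteins. Before SE it was at 0.03 and 0.19 CPM, which were 1 and 10 tags, and at 6 h after SE at 4.71 and 5.41 CPM. SE 2 days mice had 37.78 and 53.25 CPM. These 3 groups did not overlap, and the later the group, the higher its mice. The ratio of the tags of both SE 2 days mice to those of both pre-SE mice, each over its total, was 331 (95% exact interval 184 to 663, for counting error only). The logFC at 2 days was 7.86 (standard error 0.99, limma adjusted p = 0.0019).

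*Cd72* (ENSMUSG00000028459, chromosome 4 from 43459334 to 43467500) encodes an inhibitory receptor best known from B cells and also found on microglia and macrophages. Pre-SE mice had 1 and 3 tags of it, or 0.03 and 0.06 CPM. SE 6 h mice had 11 and 2 tags, or 0.35 and 0.14 CPM, and SE 2 days mice had 641 and 428 tags, or 27.18 and 20.44 CPM. The gene was thus near the limit of detection until 6 h and reached at 2 days a level like that of *Tyrobp* in pre-SE mice. The ratio of tags between the SE 2 days and pre-SE mice was 484, with a counting interval from 189 to 1781. The fitted logFC of 7.36 (standard error 0.72) had a limma adjusted p of 0.00095. The 3′ part of *Cd72* overlaps *Tesk1* on the other strand over 1603 bases that hold no annotated start of *Cd72*. *Tesk1* was at 36.59 and 44.85 CPM in the SE 2 days mice and 54.18 and 45.72 CPM in the pre-SE mice. Whether tags of 1 gene were counted for the other was not tested.

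*Clec7a* (ENSMUSG00000079293, chromosome 6 from 129411611 to 129422790) encodes dectin-1, a receptor for fungal glucans that marks disease-associated microglia. At 2 days it was the least abundant of the 10 genes. Pre-SE mice had 2 tags each (0.07 and 0.04 CPM), SE 6 h mice 11 and 4 tags (0.35 and 0.27 CPM) and SE 2 days mice 27 and 34 tags (1.14 and 1.62 CPM). Against pre-SE mice the ratio of tags at 2 days was 27.6 (counting interval 10.3 to 105), and the logFC of 3.24 (standard error 0.59) was called (limma adjusted p = 0.011). Its call was lost without either pre-SE mouse and without SE 2 days replicate 2 (limma adjusted p = 0.11).

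*Aif1* and *Cd68* encode proteins widely used to stain microglia and macrophages, IBA1 in the cytoplasm and CD68 in lysosomes. *Aif1* (ENSMUSG00000024397, chromosome 17 from 35307936 to 35313013) was at 10.9 and 19.51 CPM in the pre-SE mice, 8.6 and 12.4 CPM in the SE 6 h mice and 78.86 and 64.53 CPM in the SE 2 days mice. *Cd68* (ENSMUSG00000018774, chromosome 11 from 69477715 to 69479655) was at 6.93 and 6.65, 21.43 and 19.53, and 59.23 and 68.87 CPM in the same 3 groups. The stain markers therefore parted at 6 h, where *Aif1* overlapped the pre-SE mice and *Cd68* was above them, and were both high at 2 days. The logFC at 2 days was 2.28 for *Aif1* (standard error 0.32, limma adjusted p = 0.003) and 3.21 for *Cd68* (standard error 0.35, limma adjusted p = 0.0013).

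The secreted products were *Spp1* (osteopontin, a matrix cytokine), *Lgals3* (galectin-3, a galactoside-binding lectin) and *Apoe*. *Spp1* (ENSMUSG00000029304, chromosome 5 from 104864137 to 104870069) was at 2.48 and 1.1 CPM in the pre-SE mice, 21.04 and 17.95 CPM in the SE 6 h mice, and 75.98 and 628.17 CPM in the SE 2 days mice. The log2 ratio of SE 2 days replicate 1 to replicate 2 was −3.05, and 0.259% of all genes had as large a gap between these mice. The logFC at 2 days was 6.96 (standard error 1.11, limma adjusted p = 0.0057), and without SE 2 days replicate 2 it was 5.43 (limma adjusted p = 0.065), so that the call was lost.

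*Lgals3* (ENSMUSG00000050335, chromosome 14 from 47987426 to 48005835) showed the same order of groups with little spread. It was at 2.66 and 1.82 CPM in the pre-SE mice, 13.63 and 13.02 CPM in the SE 6 h mice, and 60.29 and 71.4 CPM in the SE 2 days mice. The logFC at 2 days was 4.83 (standard error 0.63, limma adjusted p = 0.0024).

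*Apoe* (ENSMUSG00000002985, chromosome 7 from 20281458 to 20284515), which astrocytes express strongly in the healthy brain, was at 6162.82 and 4472.65 CPM in the pre-SE mice. It was at 4545.73 and 3768.52 CPM in the SE 6 h mice and at 2407.6 and 3060.18 CPM in the SE 2 days mice. SE + LEV 6 h mice had 6353.2 and 2800.57 CPM and SE + LEV 2 days mice 3046.83 and 3647.62 CPM. It was lower in each SE 2 days mouse than in either pre-SE mouse, as were 25.6% of all genes. The logFC of −0.95 (standard error 0.42) was not called (limma adjusted p = 0.24), nor was it called in any alternative. At an unadjusted p under 0.05, where *Apoe* stood, 7.29% of all genes were lower. *Apoe* made up 98.7 to 99.2% of the summed CPM of the 10 genes in pre-SE mice and 73.9 to 83.9% in SE 2 days mice. The sum of the 9 other genes was 50.73 and 59.81 CPM before SE and 461.5 and 1081 CPM at 2 days.

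**Figure D1:**
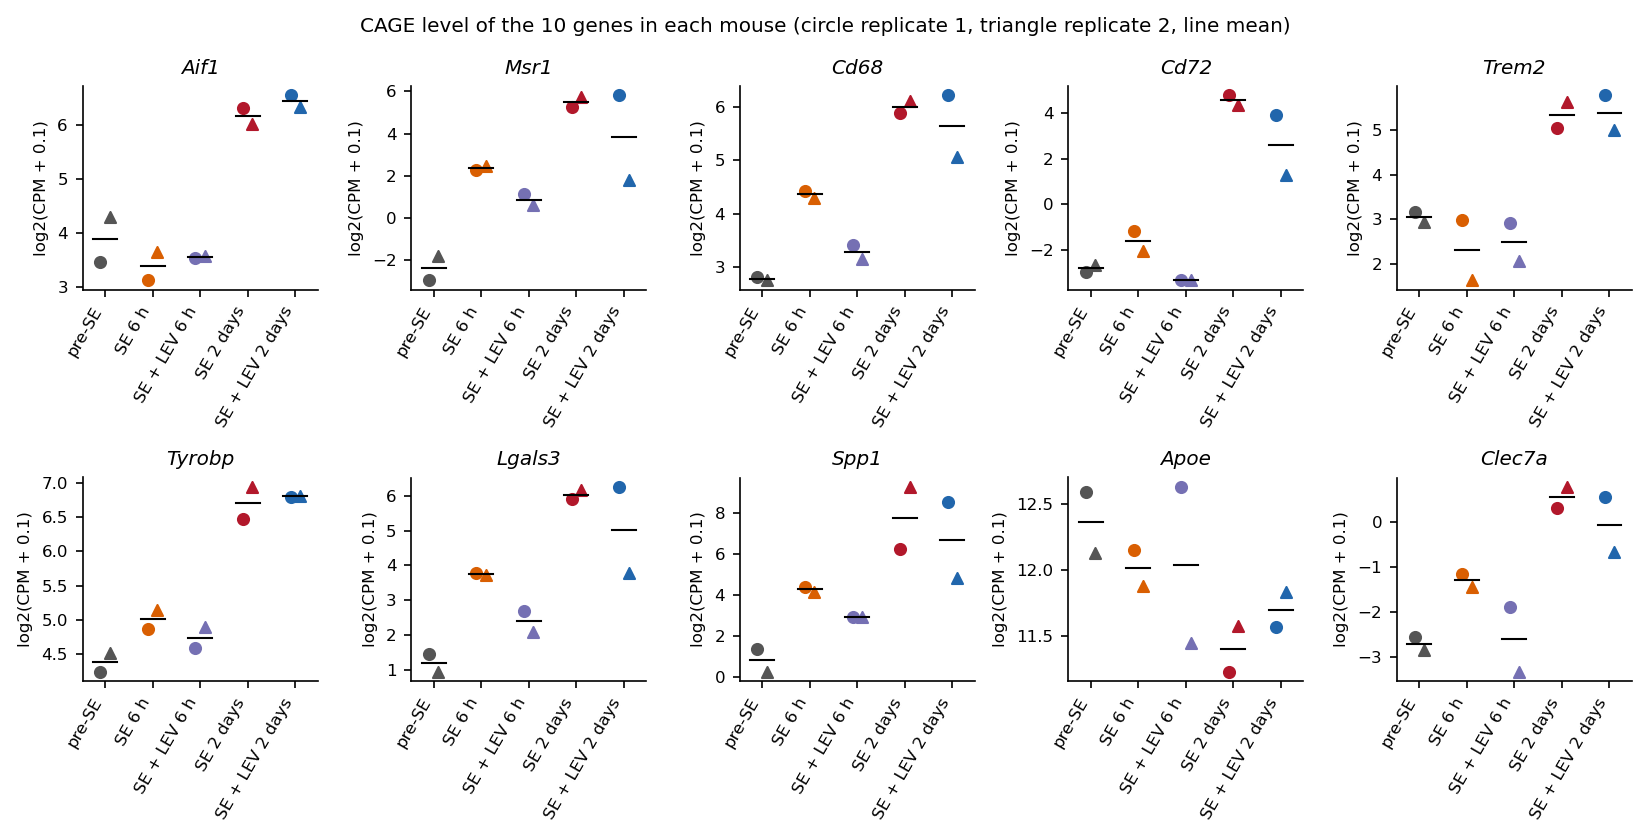
Level of each of the 10 genes in each mouse, as log2(CPM + 0.1) on the vertical axis of each panel, with the 5 groups along the horizontal axis; circles are replicate 1, triangles replicate 2 and lines the mean of 2 mice. In 9 panels the SE 2 days points lie above the pre-SE points, in the *Apoe* panel they lie below, and the SE + LEV 2 days mice lie far apart for *Msr1*, *Cd72*, *Lgals3* and *Spp1*.

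At 6 h after SE, 2 of the 10 genes had risen by the limma test, *Msr1* and *Cd68*, beside 2.76% of all genes called higher. The logFC was 4.73 for *Msr1* (limma adjusted p = 0.032, standard error 0.99) and 1.58 for *Cd68* (limma adjusted p = 0.042, standard error 0.35). *Spp1* had a logFC of 3.47 (limma adjusted p = 0.15), *Lgals3* 2.54 (0.066), *Clec7a* 1.40 (0.25), *Cd72* 1.19 (0.42) and *Tyrobp* 0.63 (0.23), and these 5 were not called. In all 7 of these genes the SE 6 h mice were both higher in CPM than either pre-SE mouse, against 18.6% of all genes. For *Cd72* this rests on 2 tags in SE 6 h replicate 2, under the limit of 3, against 3 tags in the deeper library of pre-SE replicate 2. *Aif1* (−0.49), *Trem2* (−0.74) and *Apoe* (−0.34) had negative estimates that were not called. The median logFC was 1.30 for the 10 genes and −0.13 for all genes, and median-of-ratios rescaling moved the latter to −0.005.

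Both calls at 6 h depended on the settings. Leaving out any 1 of the mice of the pre-SE, SE 6 h, SE + LEV 6 h or SE 2 days groups ended both (limma adjusted p up to 0.20 for each), as did pseudocounts of 0.5 and 1 and a fit without the mean-variance trend. Leaving out either SE + LEV 2 days mouse, or fitting the pre-SE and SE 6 h mice alone, instead gave 4 called genes, with *Lgals3* and *Spp1* added.

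The rise from 6 h to 2 days was called in 5 of the 10 genes, beside 3.14% of all genes. These were *Cd72* (logFC 6.17, limma adjusted p = 0.0028), *Trem2* (3.03, 0.0083), *Aif1* (2.78, 0.0028), *Tyrobp* (1.70, 0.0061) and *Cd68* (1.64, 0.030). For *Spp1* (3.48, 0.12), *Msr1* (3.13, 0.11), *Lgals3* (2.29, 0.076) and *Clec7a* (1.84, 0.12) it was not called, although both SE 2 days mice were above both SE 6 h mice in these genes too, as in 31% of all genes. *Trem2* and *Aif1*, with estimates below pre-SE at 6 h, thus had larger logFC between the times than *Lgals3*, which was already 5.83-fold above pre-SE on the fitted scale at 6 h. *Cd68* was no longer called with median-of-ratios rescaling or with edgeR. The count was 2 without SE 2 days replicate 2, 3 without either SE 6 h mouse and 8 without either SE + LEV 2 days mouse. The comparisons above share the pre-SE mice or the SE mice and are not independent of each other.

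**Figure D2:**
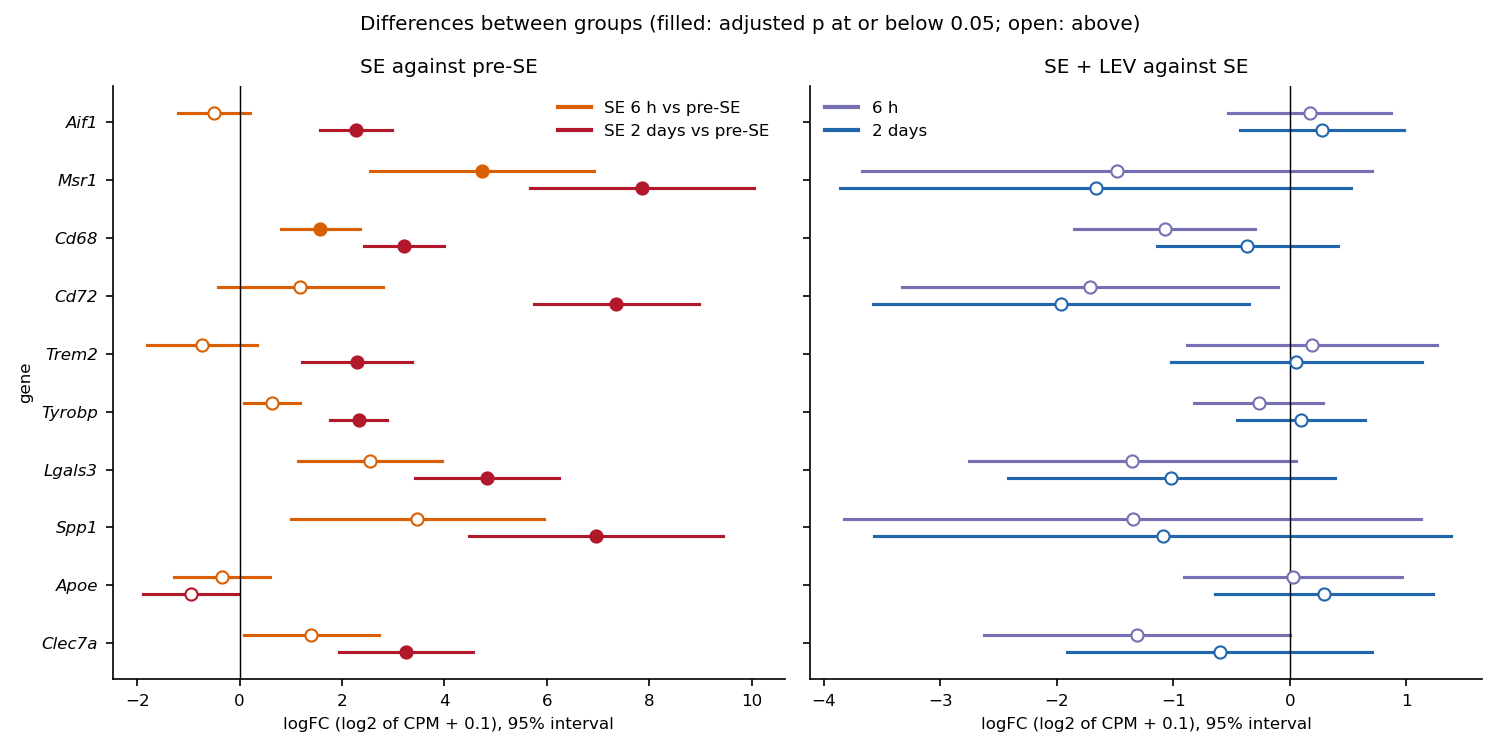
Horizontal axis: logFC, a difference of log2(CPM + 0.1), with its 95% interval from the limma fit; vertical axis: the 10 genes. The left panel sets SE 6 h and SE 2 days mice against pre-SE mice and the right panel sets SE + LEV mice against SE mice at each time; filled points had an adjusted p of at most 0.05. On the left 2 points are filled at 6 h and 9 at 2 days, and on the right none is filled.

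SE + LEV 2 days mice showed the same set against pre-SE mice, with 9 of the 10 genes called higher beside 2.83% of all genes. The logFC ran from 2.34 for *Trem2* to 6.19 for *Msr1*, with a median of 2.75 over the 10 genes, and was −0.66 for *Apoe*, which was not called (limma adjusted p = 0.71). When the pre-SE and SE + LEV 2 days mice were fitted alone, 0 of the 10 and 0 of all genes were called (limma adjusted p = 0.051 for *Tyrobp* and 0.066 for *Aif1*), and without either pre-SE mouse the count was 5. In SE + LEV 6 h mice 0 of the 10 were called higher than in pre-SE mice by limma, edgeR or DESeq2, beside 0.315% of all genes, and 1 (*Msr1*) was higher at an unadjusted p under 0.05. Between SE + LEV 6 h and SE + LEV 2 days mice 5 were called higher, beside 2.06% of all genes, with 3 to 9 over the mice left out and 8 with DESeq2.

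With LEV at 6 h, 6 of the 10 genes were lower in both mice than in both SE 6 h mice, as were 13.4% of all genes. These were *Msr1*, *Cd68*, *Cd72*, *Lgals3*, *Spp1* and *Clec7a*. None of the 10 was called lower by limma, edgeR's quasi-likelihood test or DESeq2, and 0.0126% of all genes were by limma. At an unadjusted p under 0.05, 3 were lower (*Cd68*, *Cd72* and *Clec7a*), beside 3.42% of all genes.

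*Cd68*, with the lowest unadjusted p of the 10, was at 10.57 and 8.82 CPM in the SE + LEV 6 h mice against 21.43 and 19.53 CPM in the SE 6 h mice. The logFC was −1.07 (95% interval −1.85 to −0.30, limma adjusted p = 0.79). *Msr1* was at 2.13 and 1.42 CPM against 4.71 and 5.41 CPM, *Lgals3* at 6.38 and 4.17 CPM against 13.63 and 13.02 CPM, and *Spp1* at 7.54 and 7.59 CPM against 21.04 and 17.95 CPM. In each of these genes the SE + LEV 6 h mice lay between the pre-SE and the SE 6 h mice. The logFC was −1.48 for *Msr1* (95% interval −3.67 to 0.71), −1.35 for *Lgals3* (−2.75 to 0.05) and −1.35 for *Spp1* (−3.83 to 1.13), and each of these intervals included 0.

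*Cd72* had 0 tags in both SE + LEV 6 h mice and 13 tags in the SE 6 h mice together. Of the 13 tags, 11 were in replicate 1, and the 2 in replicate 2 were under the limit of 3. Taking 3 tags in each mouse as the floor, it was at least 1.92-fold lower with LEV. SE + LEV 6 h replicate 2 was the shallowest library (10540698 tags), and there *Clec7a* had 0 tags too, against 5 in replicate 1 and 11 and 4 in SE 6 h replicates 1 and 2. The median logFC of the 10 genes was −1.19 as fitted and −1.01 with *Cd72* at its bound, while that of all genes was 0.04. *Tyrobp* (−0.27), *Aif1* (0.17), *Trem2* (0.19) and *Apoe* (0.03) had estimates near 0, and their values overlapped those of the SE 6 h mice.

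At 2 days, 1 of the 10 genes, *Cd72*, was lower in both SE + LEV mice than in both SE mice (12.2% of all genes were), and 1, *Aif1*, was higher in both (15.2%). *Cd72* was at 14.97 and 2.34 CPM against 27.18 and 20.44 CPM in the SE 2 days mice, with a logFC of −1.97 (95% interval −3.58 to −0.35, limma adjusted p = 1). It was 1 of 10 lower at an unadjusted p under 0.05, beside 1.39% of all genes. *Aif1* was at 93.36 and 79.8 CPM against 78.86 and 64.53 CPM, with a logFC of 0.27 (95% interval −0.43 to 0.98). By limma, edgeR and DESeq2, 0 of the 10 were called lower at 2 days, and limma called 0% of all genes.

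The SE + LEV 2 days mice differed strongly from each other. In replicate 1 the CPM was 56.42 for *Msr1*, 370.02 for *Spp1*, 76.67 for *Lgals3*, 74.3 for *Cd68* and 1.37 for *Clec7a*, each above at least 1 of the SE 2 days mice. In replicate 2 the same genes were at 3.45, 28.42, 13.6, 33.1 and 0.53 CPM, each below both SE 2 days mice. The gap on the log2 scale was 3.99 for *Msr1*, 3.70 for *Spp1*, 2.63 for *Cd72* and 2.49 for *Lgals3*, gaps that 0.139%, 0.177%, 0.681% and 0.82% of all genes reached between these mice. It was 1.22 for *Clec7a*, 1.16 for *Cd68*, 0.78 for *Trem2*, 0.23 for *Aif1* and −0.02 for *Tyrobp*.

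The split differed between genes, with *Tyrobp* and *Aif1* at like levels in both mice and *Msr1* and *Spp1* at levels far apart. A gap of at least 2-fold was present in 6 of the 10 genes, beside 13.3% of all genes, and in each of these 6 replicate 1 was the higher. In the other groups 1 or 2 of the 10 genes had such a gap. Replicate 2 had 24346865 tags and replicate 1 had 43743195, and the SE 2 days mice had 23585359 and 20937023. The cause of the gaps was not tested. Without SE + LEV 2 days replicate 2 the logFC with LEV at 2 days became 0.33 for *Msr1*, 0.76 for *Spp1*, 0.22 for *Lgals3* and 0.22 for *Cd68*, and that of *Cd72* remained negative at −0.65. Without replicate 1 it was −3.66 for *Msr1*, −2.94 for *Spp1*, −2.26 for *Lgals3* and −3.28 for *Cd72*, and none of these was called (lowest limma adjusted p = 0.12, for *Msr1*).

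Expressed as a position between the pre-SE mean (0%) and the SE 2 days mean (100%) on the log2 scale, SE + LEV 2 days replicate 1 had a median of 105% over the 9 genes that rose (range 91.1 to 119%). Replicate 2 had a median of 62.6% (53.2 to 107%). At 6 h the medians over the 7 genes with a difference of at least 0.5 between SE and pre-SE were 57.5% (−44.5 to 74.5%) and 35% (−44.6 to 81.6%) in replicates 1 and 2. Without *Cd72* and *Clec7a*, which had 0 tags in 1 or both of these mice, they were 58.7% and 61.3% over 5 genes. These positions use the SE mice of the comparisons with pre-SE mice and are not independent of them. The change of the LEV effect between the times was tested as an interaction. Of the 10 genes 0 were called by limma, edgeR or DESeq2, with 0 at an unadjusted p under 0.05, beside 0% of all genes called and 2.38% at an unadjusted p under 0.05. Its estimates ran from −0.25 for *Cd72*, which turned positive with edgeR and DESeq2, to 0.71 for *Cd68* and *Clec7a*.

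**Figure D3:**
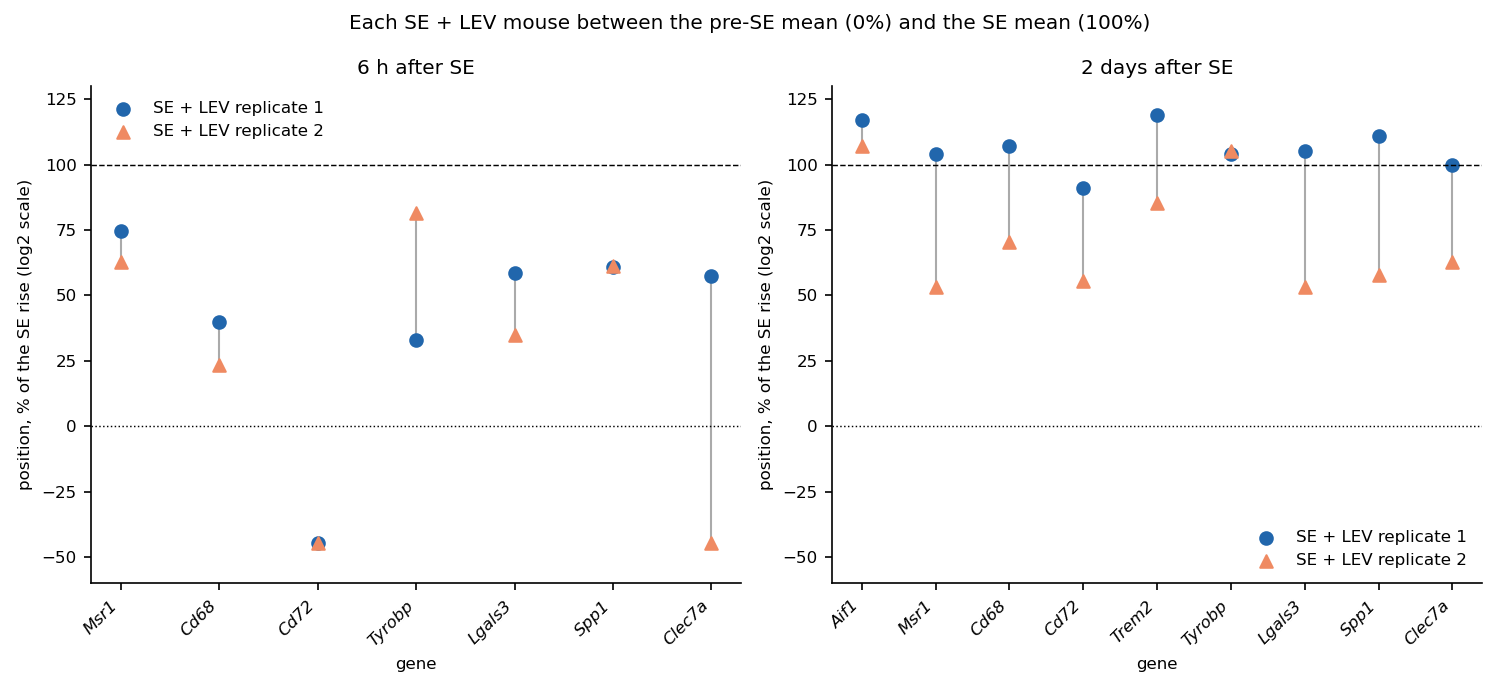
Vertical axis: level of each SE + LEV mouse as a percentage of the difference between the pre-SE mean (dotted line, 0%) and the SE mean of the same time (dashed line, 100%) on the log2(CPM + 0.1) scale; horizontal axis: the 7 genes with a difference of at least 0.5 at 6 h (left) and the 9 genes at 2 days (right). At 2 days replicate 1 lies between 91.1 and 119% and replicate 2 between 53.2 and 107%, and at 6 h the low points of *Cd72* and *Clec7a* rest on 0 tags.

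Starts of transcription depend on the promoter, and for 8 of the 10 genes RefSeq on GRCm38.p6 gives at least 1 promoter window. A window runs from 250 bases before the annotated start to 50 after. *Apoe* had 3 windows, *Spp1* and *Clec7a* 2 each, and *Aif1*, *Cd68*, *Cd72*, *Trem2* and *Lgals3* 1 each. *Msr1* and *Tyrobp* had no entry. These windows were searched on both strands for the letters GAGGAAGT of PU.1, the lineage factor of microglia and macrophages, and for TGANTCA of AP-1, the dimers of Fos and Jun proteins. The first was found in 2 of 8 genes (*Cd72* and *Spp1*) and in 3.2% of all 32851 promoters, and the second in 2 of 8 (*Cd68* and *Trem2*) and in 7.81%. The counts are of genes and the percentages are of windows, so they are not in the same unit. The 160 bases before the start of 4 genes are printed, from 5′ to 3′ on the strand of the gene, because these hold a match and span the range of time courses, from *Cd68* (called at 6 h) and *Spp1* to *Trem2* and *Cd72* (called at 2 days). Capitals mark the matches and lower case the rest. The *Spp1* window is chr5:104434951-104435110 on the plus strand, with the PU.1 letters at −113. The *Cd72* window is chr4:43454627-43454786 on the minus strand, with the PU.1 letters on the opposite strand at −49. The *Cd68* window is chr11:69666171-69666330 on the minus strand, with AP-1 letters at −149 and −24, and the *Trem2* window is chr17:48346241-48346400 on the plus strand, with AP-1 letters at −9.
Spp1: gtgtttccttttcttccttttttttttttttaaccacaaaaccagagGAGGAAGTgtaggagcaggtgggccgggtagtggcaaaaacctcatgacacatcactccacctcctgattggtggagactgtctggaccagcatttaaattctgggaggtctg
Cd72: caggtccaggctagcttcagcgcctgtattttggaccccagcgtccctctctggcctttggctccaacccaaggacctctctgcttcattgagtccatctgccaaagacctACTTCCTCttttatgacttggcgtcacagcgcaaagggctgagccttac
Cd68: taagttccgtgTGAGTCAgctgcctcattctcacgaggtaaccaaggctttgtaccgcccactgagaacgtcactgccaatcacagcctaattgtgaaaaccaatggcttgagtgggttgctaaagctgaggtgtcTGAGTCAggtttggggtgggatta
Trem2: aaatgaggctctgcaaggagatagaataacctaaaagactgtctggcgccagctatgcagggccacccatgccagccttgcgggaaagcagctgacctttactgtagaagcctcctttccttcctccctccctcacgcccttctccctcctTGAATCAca
A match is a description of letters and no evidence of binding. *Aif1*, *Lgals3*, *Apoe* and *Clec7a* held none of these letters in their windows.

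The listed genes that mark microglia and macrophages in general rose with the 9 genes. Of 12 such markers, 11 were tested and 9 were called higher at 2 days, with a median logFC of 2.66. They include the complement subunits *C1qb* (logFC 3.21, limma adjusted p = 0.00092) and *C1qa* (2.92, 0.0015), the Fc receptor chain *Fcer1g* (3.12, 0.0014) and the leukocyte phosphatase *Ptprc* (2.93, 0.0014). *Itgam* (1.53) and *Csf1r* (0.87) were not called. At 6 h 0 of the 11 were called by limma, with a median of 0.59, and their summed level was 256.83 to 300.59 CPM in SE 6 h mice, 221.18 to 227.87 CPM in pre-SE mice and 1087.57 to 1330.85 CPM in SE 2 days mice.

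The 10 genes were also set against the mean of these markers. At 2 days the mean of the markers was 2.41 above pre-SE on the log2 scale, and *Tyrobp*, *Trem2* and *Aif1* changed by −0.08, −0.13 and −0.13 beyond it. *Msr1* (5.44), *Cd72* (4.95), *Spp1* (4.55), *Lgals3* (2.42) and *Cd68* (0.81) changed by more, and *Apoe* by −3.36. The value for *Clec7a*, 0.83, rests on 2 tags in each pre-SE mouse and on the pseudocount, and its ratio of tags was 27.6. Those for *Msr1* and *Cd72* also rest on the pseudocount and on few pre-SE tags, 1 and 10 for *Msr1* and 1 and 3 for *Cd72*. Their ratios of tags at 2 days were 331 and 484. At 6 h the mean of the markers was 0.43 above pre-SE, with *Msr1* at 4.30, *Spp1* at 3.04, *Lgals3* at 2.12 and *Cd68* at 1.15 beyond it, and *Aif1* at −0.92 and *Trem2* at −1.17. These are descriptions over 2 mice a group and were not tested.

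Of 11 tested genes that mark resting microglia, 3 fell at 6 h, namely *Selplg* (logFC −2.51, limma adjusted p = 0.012), *P2ry12* (−2.51, 0.012) and *Tmem119* (−2.50, 0.0047), while 0 were called higher. At 2 days *Fcrls* (2.72, 0.025) and *Olfml3* (2.31, 0.012) were among those called higher, and 0 were called lower. The estimate was above pre-SE in 8 of the 11, beside 47.2% of all genes, with a median logFC of 0.82. Of the 11, 8 were called higher at 2 days than at 6 h, beside 3.14% of all genes. *Tmem119* was at 14.07 and 15.47 CPM in the pre-SE mice, 2.21 and 2.88 CPM in the SE 6 h mice and 36.38 and 30.76 CPM in the SE 2 days mice, so it was above its pre-SE level at 2 days. *P2ry12*, a purine receptor of resting microglia, was at 41.45 and 26.88 CPM in the pre-SE mice, 6.51 and 5.14 CPM in the SE 6 h mice and 18.06 and 16.91 CPM in the SE 2 days mice, below both pre-SE mice. In SE + LEV 2 days mice it was at 20.37 CPM in replicate 1 and 52.74 CPM in replicate 2, the mouse with the lower *Msr1*, *Spp1* and *Cd72*.

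Among genes of TREM2 and TYROBP signalling, 6 of 15 tested were called higher at 2 days and 0 lower, and 0 of 15 were called at 6 h, with a median logFC of 1.38 at 2 days and −0.13 at 6 h. The largest were the adaptor *Lat2* (3.85, limma adjusted p = 0.0013), *Clec5a*, a further receptor that signals through TYROBP (3.25, 0.0046), the phosphatase *Ptpn6* (2.69, 0.0059) and the exchange factor *Vav1* (2.41, 0.0027). *Inpp5d*, the inositol phosphatase SHIP1, which restrains this pathway, was also called (1.47, 0.025). The kinase gene *Syk* was not analysed here.

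Other genes of the disease-associated state were called higher in 10 of 19 at 2 days, with a median logFC of 1.77. They include *Ch25h*, an oxysterol-producing hydroxylase (6.44, limma adjusted p = 0.0014), the cystatin *Cst7* (4.67, 0.0047), the surface glycoprotein gene *Cd52* (4.31, 0.00073) and *Gpnmb* (3.39, 0.025). *Ch25h* (3.75, 0.023) and the growth factor gene *Csf1* (1.59, 0.024) were also called at 6 h. Of 11 listed partners of osteopontin and galectins, 5 were called higher at 2 days, and *Cd44*, a receptor for osteopontin and hyaluronan (5.18, 0.0021), the integrin *Itga5* (5.09, 0.0039), *Lgals1* (4.07, 0.00073) and *Lgals3bp* (3.48, 0.0046) had the largest logFC. *Itga5* was called at 6 h too (3.57, 0.034).

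Partners of *Apoe* and scavenger receptors related to *Msr1* were listed too. Of 16 genes of lipid handling, 2 were called higher at 2 days, the apolipoprotein gene *Apoc2* (3.27, limma adjusted p = 0.035) and the lipid droplet coat gene *Plin2* (2.71, 0.0032), with a median logFC of 0.56. *Plin2* was called at 6 h (2.02, 0.02). Of 11 scavenger and phagocytic receptors, 0 were called by limma at either time, with medians of 0.18 at 6 h and 0.58 at 2 days.

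**Figure D4:**
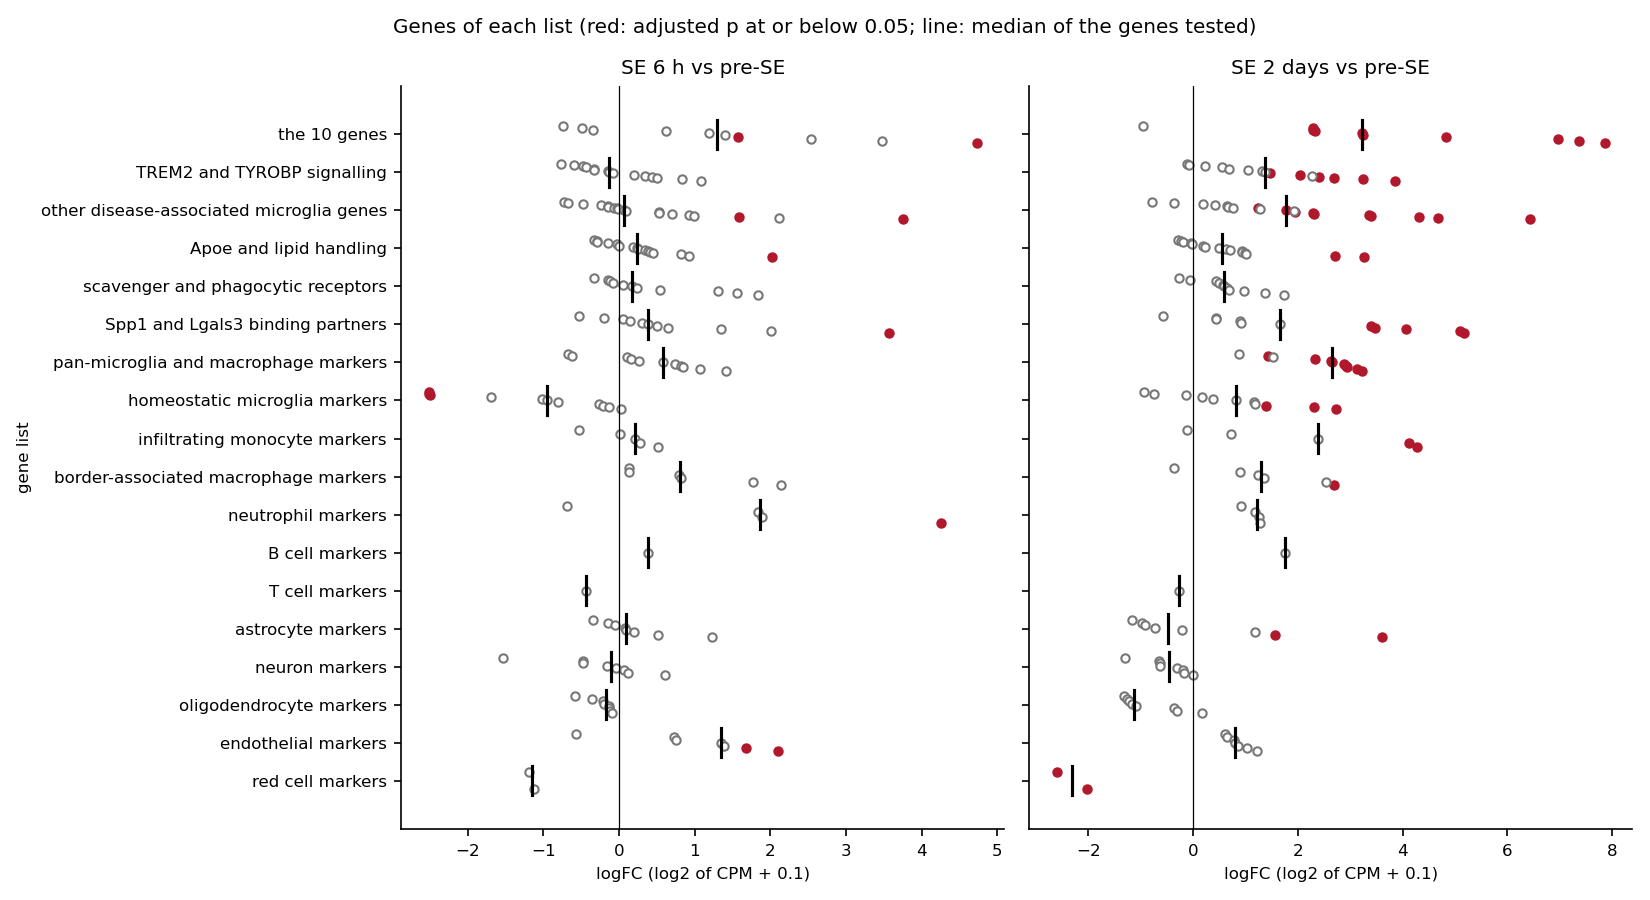
Each point is 1 gene of the list named on the vertical axis, placed by its logFC (difference of log2(CPM + 0.1)) against pre-SE mice at 6 h (left) and 2 days (right); red points had an adjusted p of at most 0.05 and black lines are medians. At 2 days the median of the 10 genes is 3.23 and that of the pan-microglia markers 2.66, and at 6 h the resting microglia markers have a median of −0.95.

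Markers of other cells moved with some of these results, and their part in the results was not tested. Of 10 listed monocyte markers 5 were tested and 2 were called higher at 2 days, *Ms4a4c* (logFC 4.27, limma adjusted p = 0.0013), at 2.12 and 1.91 CPM in SE 2 days mice, and *Plac8* (4.12, 0.0045), at 5.05 and 2.24 CPM. The defining markers *Ccr2* and *Ly6c2* were not analysed here. The summed level of the 5 ranged from 153.36 to 250.86 CPM in pre-SE mice and from 231.13 to 347.66 CPM in SE 2 days mice. In pre-SE mice most of it was *Gda*, at 125.4 and 210.48 CPM, which was at 155.1 and 145.44 CPM in SE 2 days mice. Before SE *Ms4a4c* was at 0 and 0.02 CPM and *Plac8* at 0.1 and 0.1 CPM. Of border macrophage markers, 1 of 6 was called higher at 2 days (*Ms4a7*, 2.69, 0.0496).

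Of 8 B cell markers, 1 had a row, *Cd22*. It was at 0.03 and 0 CPM in the pre-SE mice and 0.21 and 0.38 CPM in the SE 2 days mice. SE + LEV 2 days replicates 1 and 2 had 0.5 and 0.08 CPM of it. Its logFC at 2 days was 1.76, which was not called by limma. A part of B cells in the level of *Cd72* was not tested. *Cd79a* was not analysed here. Of neutrophil markers 4 of 10 were tested, 0 were called at 2 days by limma, and *Mpo* was called higher at 6 h (4.26, limma adjusted p = 0.012), with 0 and 0.02 CPM before SE and 3.4 and 1.16 CPM in the SE 6 h mice. Among 8 astrocyte markers, *Gfap* (3.60, 0.000955) and *Aqp4* (1.57, 0.011) were called higher at 2 days. A negative estimate was found in 5 of the 8, beside 52.8% of all genes. The median of the 8 was −0.47, beside the −0.95 of *Apoe*. Red cell markers fell at 2 days in 2 of 2 genes tested, *Hbb-b2* (−2.60, 0.030) and *Hbb-b1* (−2.03, 0.018).

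Of 7 endothelial markers tested, 2 were called higher at 6 h, the cadherin *Cdh5* (2.10, limma adjusted p = 0.0061) and the adhesion gene *Esam* (1.68, 0.031), and the median logFC was 1.35. All 7 lay above pre-SE in estimate at 2 days, as did 47.2% of all genes. None of the 7 was called by limma there, and the median was 0.79. Oligodendrocyte markers had a lower estimate at 2 days in 7 of 8 genes, beside 52.8% of all genes, with a median of −1.13. With LEV at 2 days 7 of the 8 had a higher estimate, beside 55.4% of all genes, with a median of 0.70. Neuron markers had a lower estimate at 2 days in 8 of 8 genes, beside the same 52.8% of all genes, with a median of −0.47. None of the oligodendrocyte or neuron markers was called in these comparisons by limma.

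Over the 10 libraries, the genes whose log2 profile was most like the mean profile of the 10 genes were *Ctsz* (cathepsin Z, Pearson r = 0.983), *Pilra* (0.980), *Lcp1* (0.977), *Tlr4* (0.975), *Mpeg1* (0.974), *Gm885* (0.974), *Ccdc80* (0.974) and *Prc1* (0.973). These coefficients are descriptions over 10 libraries that the genes share. *Ctsz* was at 35.21 and 32.41 CPM in the pre-SE mice and at 190.12 and 222.48 CPM in the SE 2 days mice. With this mean the 10 genes themselves had coefficients from 0.874 (*Aif1*) to 0.981 (*Cd68*), except *Apoe* at −0.585. Each of the 10 is part of the mean, which raises its own coefficient, so these values cannot be set against those of the other genes.

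The genes most like each single gene differed with its time course. *Aif1* was nearest to the DNA topoisomerase *Top2a* (r = 0.990), *Trem2* to *Emr1*, which encodes the macrophage marker F4/80 (0.991), and *Tyrobp* to *S100a6* (0.991). *Msr1* was nearest to the cytokine *Clcf1* (0.992), *Lgals3* to *Ch25h* (0.990), *Cd68* to *Lcp1* (0.990), *Cd72* to the sialic acid receptor *Siglec1* (0.987), *Clec7a* to *Mpeg1* (0.986) and *Spp1* to *Sgpl1* (0.987). *Apoe* was nearest to *Fam107a* (0.959), which was at 214.44 and 151.26 CPM in the pre-SE mice and at 98.87 and 114.34 CPM in the SE 2 days mice.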

How the data were processed

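CAGE libraries of 10 hippocampi were used. Per the study's methods and notes, mapping to mm9 used BWA 0.7.17 and, for tags left over, HISAT2 2.0.5. Tag clusters came from RECLU, those under 0.1 CPM were dropped, and the authors deposited 1 CPM value per gene and mouse. How clusters were summed to genes, and whether strand was used, is not given in the sources used here. Tags were recovered from the deposited CPM values as whole multiples of 1 tag, which held for 100% of values within 0.005 CPM. Of the value columns 0 were unused.

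The test of differences was limma 3.58.1 (R 4.3.3) after the transform log2(CPM + 0.1). A single two-sided fit of the 10 libraries had a mean for each of the 5 groups and a mean-variance trend. Adjustment was by Benjamini and Hochberg over 15851 genes, those that reached 0.1 CPM in 2 or more libraries. The fit was tested on simulated data. Alternatives were pseudocounts of 0.01, 0.5 and 1, no filter, a filter of 1 CPM in 2 or more libraries, median-of-ratios rescaling, a replicate block, no trend, only the groups compared, edgeR 4.0.16 and DESeq2 1.42.0 on recovered tags, and each mouse left out. A crossed block was added after the data were seen. The 10 genes and the lists were chosen with earlier results of these data known. Beside the 10 genes, up to 4 called genes of a list with the largest logFC at 2 days and up to 2 at 6 h were named, with markers set beside a value, the 8 genes most like the mean of the 10, the gene most like each, and overlapping genes. *Inpp5d*, *Csf1*, *Hcst* and the listed genes that were not called or not analysed were named after their values were seen. Gene positions are from GENCODE vM1 on mm9, and promoter sequences from RefSeq on GRCm38.p6. Some genes of the marker lists are not reported here.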

Additional observations from a re-analysis of the deposited data

Results flagged for a closer look

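The effect of SE differed between 6 h and 2 days in 5 of the 10 genes, by the limma test of SE 2 days against SE 6 h mice. The logFC between the times was 6.17 for *Cd72*, 3.03 for *Trem2*, 2.78 for *Aif1*, 1.70 for *Tyrobp* and 1.64 for *Cd68*, and in each gene both SE 2 days mice were above both SE 6 h mice. *Aif1* and *Cd72* remained called with each mouse left out, with a limma adjusted p of at most 0.033. *Cd68* was not called without any 1 of the SE 6 h or SE 2 days mice, *Trem2* and *Tyrobp* not without SE 2 days replicate 2, *Trem2* not without SE 6 h replicate 2 and *Tyrobp* not without SE 6 h replicate 1.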

How the results depend on the processing

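Across 22 alternatives the count of these genes called lower with LEV stayed at 0 at either time. Of the 9 genes called higher at 2 days after SE, *Aif1*, *Msr1*, *Cd68*, *Cd72*, *Tyrobp* and *Lgals3* were called in all 22. *Spp1* was called in 21, *Trem2* in 19 and *Clec7a* in 18, and each of these lost its call without SE 2 days replicate 2. The 2 called at 6 h became 0 with pseudocounts of 0.5 and 1 and without the trend, 4 with only the groups compared, and 0 to 4 with a mouse left out. With the replicate block they became 1, since *Msr1* was lost, and the block changed no other count of these genes. The numbers mark different animals, and deviations of same-numbered mice had correlations from −0.44 to 0.34 across genes. With the numbers crossed in SE + LEV 2 days, the counts were 2 at 6 h, 9 at 2 days and 0 with LEV. For SE + LEV 2 days against pre-SE the 9 became 0 with only the groups compared and 5 to 9 with a mouse left out, for SE 2 days against SE 6 h the 5 became 2 to 8, and for SE + LEV 6 h against pre-SE the 0 became 0 to 1. For SE + LEV 2 days against SE + LEV 6 h the 5 became 8 with DESeq2 and 3 to 9 with a mouse left out.

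Of 1980 estimates for the 10 genes, over all 9 comparisons, 44 changed sign and none of these was called. They lay in 4 comparisons that involve LEV mice and in the interaction. With a mouse left out the LEV effect at 6 h ran from −0.092 to 0.43 for *Aif1*, −0.48 to 0.86 for *Trem2* and −0.56 to 0.62 for *Apoe*, which was −0.031 with median-of-ratios rescaling. At 2 days it ran from −3.66 to 0.33 for *Msr1*, −0.95 to 0.22 for *Cd68*, −0.33 to 0.44 for *Trem2*, −0.14 to 0.34 for *Tyrobp*, −2.26 to 0.22 for *Lgals3*, −2.94 to 0.76 for *Spp1* and −1.21 to 0.0094 for *Clec7a*. Against pre-SE mice, SE + LEV 6 h mice ran from −0.74 to 0.093 for *Aif1*, −0.91 to 0.28 for *Apoe* and −0.63 to 0.81 for *Clec7a*, which was −0.58 with a pseudocount of 0.01. Between the SE + LEV groups *Apoe* ran from −0.93 to 0.25. The interaction ran from −0.16 to 0.37 for *Aif1*, −2.18 to 1.81 for *Msr1*, −1.56 to 1.06 for *Cd72*, −0.80 to 0.54 for *Trem2*, −0.91 to 1.58 for *Lgals3*, −1.59 to 2.11 for *Spp1*, −0.32 to 0.86 for *Apoe* and −0.0060 to 1.43 for *Clec7a*. It was 0.88 with edgeR and 0.93 with DESeq2 for *Msr1*, 2.55 with a pseudocount of 0.01, 4.57 with edgeR and 3.27 with DESeq2 for *Cd72*, and −0.039 with a pseudocount of 1 for *Clec7a*. The cause was not tested. The estimates of *Cd72* and *Clec7a* rest on few tags, at most 11 in any mouse before 2 days.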
